A study of Arabidopsis thaliana with 12 samples.

Results

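The UDP-glycosyltransferases of Arabidopsis thaliana were followed in roots and shoots of seedlings of 2 genotypes. A probe set, the group of array probes read as 1 signal, was taken as a member where the array annotation linked it to exactly 1 gene whose symbol has the form of a UGT name (UGT, a family number, a subfamily letter and a gene number). This gave 56 probe sets for 51 genes in 23 subfamilies, out of 17481 probe sets linked to a named gene and 16542 genes with a probe set of their own. A further 2 probe sets were linked to a UGT together with another gene and were left out. In the RefSeq annotation 64 genes carry a UGT symbol or synonym. All 51 genes were among them, and 4 more were measured under another symbol and were not members. The other 9 were not analysed here.

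UDP-glycosyltransferases move a sugar from a UDP-sugar donor onto small molecules such as hormones, phenylpropanoids, flavonoids and foreign compounds. The product is usually more soluble, often inactive, and can be stored in the vacuole, and beta-glucosidases can release the original compound again. In Arabidopsis the family is known for conjugating salicylic acid, auxin, cytokinin, abscisic acid and brassinosteroids, for storing monolignols as glucosides, and for the last sugar transfers on flavonols, anthocyanins and glucosinolates. Many members lie side by side on the chromosomes as tandem copies.

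The samples were 12 Affymetrix Arabidopsis Gene 1.0 ST arrays, each called a library here, in 4 groups of 3 that the labels call biological replicates: root and shoot of the wild type Wassilewskija-4, and root and shoot of a line labelled aladin. Seeds were stratified for 3 days, and the seedlings then grew upright for 10 days at 20 °C, with light for 16 h a day, on medium holding agar and sucrose at 1% each. Roots and shoots were then separated. The labels give neither the allele of aladin nor the number of plants behind a library, and whether the replicates came from separate plates is not stated, so the errors measure the spread between these libraries. Values are RMA signals on the log2 scale, where a difference of 1 is a doubling. They are comparable between libraries for the same probe set and not between probe sets, and precision is limited by having 3 arrays in a group.

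The libraries of a root group correlated at r = 0.99 to 0.993 across probe sets, those of a shoot group at 0.983 to 0.987, and libraries of different organs at 0.873 to 0.893. ALADIN (AT3G56900), which codes for a nuclear pore protein, had a higher signal in the libraries labelled aladin, by 4.29 in root (adjusted p = 1.9e-11) and 4.65 in shoot (adjusted p = 7.6e-12), so that each direction below is that of libraries with this label against those labelled wild type. The organ labels were checked on marker genes. Of 18 listed genes of green tissue 4 were measured, and their summed linear signal was 624 to 661 in wild-type root, 772 to 1080 in aladin root, 10100 to 10700 in wild-type shoot and 9730 to 10300 in aladin shoot. Of 16 root genes 2 were measured, EXPA7 and EXPA18, with sums of 275 to 432 in wild-type root, 266 to 293 in aladin root, 67.6 to 87.4 in wild-type shoot and 61.7 to 72.3 in aladin shoot. The sums of 3 of 6 stomatal lineage genes were 30.0 to 38.4 in wild-type root, 28.6 to 41.7 in aladin root, 908 to 1110 in wild-type shoot and 620 to 673 in aladin shoot. The lowest log2 value of any marker was 2.65, for a stomatal lineage gene in aladin root. In bulk organs, fewer cells of a type and less RNA per cell cannot be told apart.

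Between the genotypes, 7 of the 56 UGT probe sets passed in root and 3 in shoot, and no member passed in both organs. The test was limma's moderated test with p values adjusted over all 17481 probe sets and a threshold of 0.05. In root UGT73C7, UGT76D1 and UGT73B1 rose in the libraries labelled aladin, and UGT72E1, UGT84A4, UGT71C1 and UGT71B1 fell. In shoot UGT76B1, UGT73B5 and UGT73C1 rose. The background was 7.64% of all probe sets in root (4.63% higher and 3.01% lower) and 2.96% in shoot (1.49% higher and 1.47% lower), against 12.5% and 5.36% of the UGT probe sets. By limma 0 UGTs fell in shoot, where 4 had a lower value at an unadjusted p under 0.05, and UGT71D1 passed as lower (-0.71, adjusted p = 0.0129) without wild-type shoot replicate 3. At an unadjusted p under 0.05 there were 17 members in root (30.4%, background 20.1%) and 20 in shoot (35.7%, background 17.5%). The libraries of the 2 genotypes did not overlap for 23 members in root (41.1%, background 31.7%) and for 17 in shoot (30.4%, background 19%). Differences above 0 were found for 27 members in root (48.2%, background 41.8%) and 38 in shoot (67.9%, background 45.6%). The differences ran from -0.69 to 1.47 in root and from -0.58 to 2.23 in shoot, with medians of -0.02 and 0.10 beside -0.04 and -0.02 for all probe sets. The median size of the difference regardless of sign was 0.25 for the UGTs and 0.13 for all probe sets in root, and 0.22 and 0.13 in shoot.

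**Figure D1:**
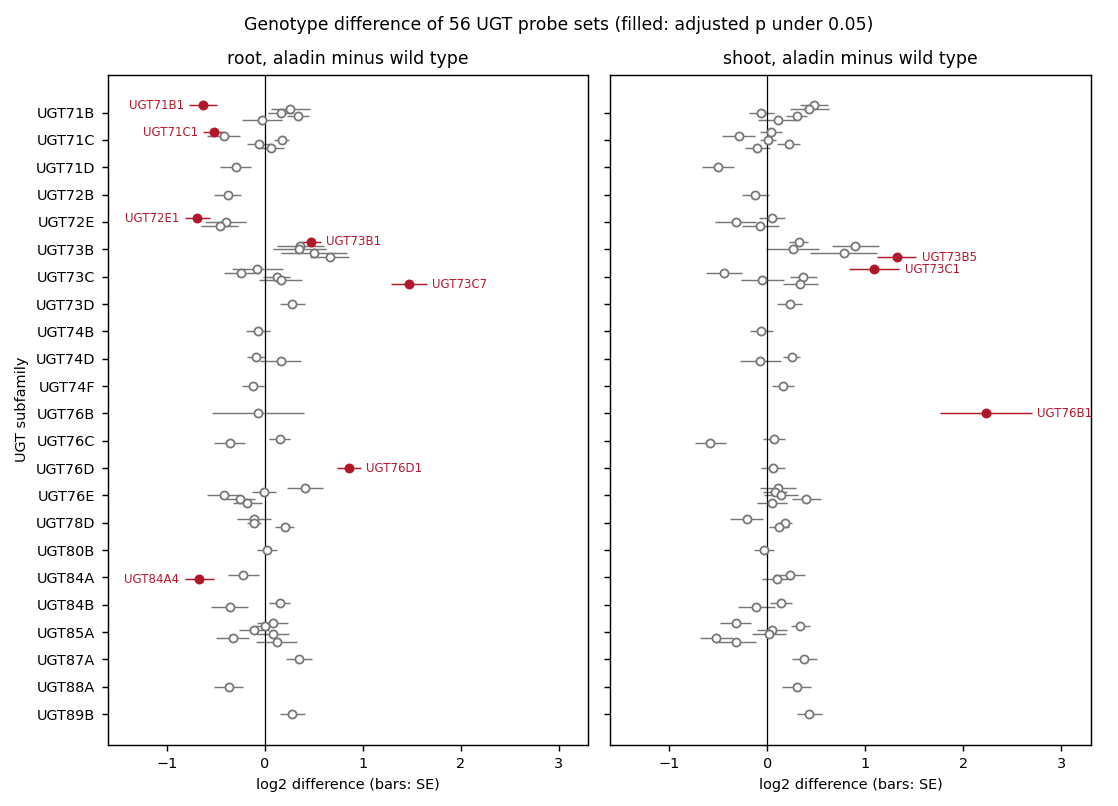
Log2 difference, aladin minus wild type, of each of the 56 UGT probe sets in root (left) and shoot (right), arranged by subfamily, with bars for the limma standard error and 3 libraries per group. Filled red points passed an adjusted p of 0.05, which were 7 in root on both sides of 0 and 3 in shoot, all above 0.

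Among the root rises, UGT73C7 is known to glucosylate hydroxycinnamic acids of the phenylpropanoid pathway during defence. Its signal was 4.05, 4.32 and 4.39 in wild-type root and 5.31, 5.97 and 5.90 in aladin root. All 3 aladin libraries lay above the wild-type ones. The difference was 1.47 (SE 0.18, 2.76-fold, adjusted p = 0.00037) and passed under all 21 alternatives, each of which changed 1 setting or left out 1 library. In shoot the values were 3.87, 4.03 and 4.29 in wild type and 4.23, 4.66 and 4.30 in aladin, overlapping groups with a difference of 0.34 (SE 0.18, adjusted p = 0.377).

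UGT76D1, an enzyme that glucosylates dihydroxybenzoic acids formed from salicylic acid, had values of 5.83, 5.39 and 5.69 in wild-type root and 6.57, 6.39 and 6.54 in aladin root. The groups were separate, with every aladin library higher. The rise was 0.86 (SE 0.12, 1.82-fold, adjusted p = 0.0008) and also passed under all 21 alternatives. In shoot its signal was 4.77, 4.60 and 4.87 in wild type and 4.77, 4.93 and 4.72 in aladin, a difference of 0.06 between overlapping groups (SE 0.12, adjusted p = 0.859).

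UGT73B1, whose enzyme accepts abscisic acid and flavonols in vitro, was the smallest of the 3 root rises. It lay at 7.53, 7.44 and 7.43 in wild-type root and at 7.83, 8.05 and 7.93 in aladin root, with no overlap. The rise was 0.47 (SE 0.10, 1.38-fold, adjusted p = 0.016). The call ended without wild-type root replicate 2 (adjusted p = 0.0607), wild-type root replicate 3 (0.0656) or aladin root replicate 2 (0.0792).

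Of the root falls, UGT72E1 codes for a glucosyltransferase of coniferyl and sinapyl aldehydes, on the path to lignin. Its values were 10.91, 10.58 and 10.76 in wild-type root and 10.27, 10.05 and 9.88 in aladin root. The aladin libraries were all lower. It fell by 0.69 (SE 0.13, 1.61-fold, adjusted p = 0.00752) and passed under all 21 alternatives. In shoot the signal was 9.17, 9.24 and 9.30 in wild type and 9.21, 9.10 and 9.54 in aladin, with overlap.

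UGT84A4, which makes glucose esters of hydroxycinnamic acids, had a signal of 3.73, 4.22 and 4.30 in wild-type root and of 3.31, 3.36 and 3.57 in aladin root. The groups were separate and wild-type root replicate 1 was the nearest to the aladin libraries. The signal was dim, as the aladin root mean of 3.41 lay below 4, the 25th percentile of mean signal over the tested probe sets. The fall was -0.67 (SE 0.15, 1.59-fold, adjusted p = 0.0165). It no longer passed without wild-type root replicate 2 (adjusted p = 0.0729) or 3 (0.079), or without aladin root replicate 1 (0.0643) or 2 (0.0654).

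UGT71C1, an enzyme known to glucosylate lignans, lay at 5.95, 6.08 and 5.81 in wild-type root and at 5.45, 5.37 and 5.46 in aladin root. The aladin libraries were lower and close to each other. The fall was -0.52 (SE 0.11, 1.44-fold, adjusted p = 0.0106), and the call ended without wild-type root replicate 2 (adjusted p = 0.0536) or aladin root replicate 2 (0.0503).

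UGT71B1 had opposite signs in the organs. In root it measured 6.24, 5.99 and 6.11 in wild type and 5.66, 5.62 and 5.19 in aladin, a fall of -0.63 between separate groups (SE 0.14, 1.54-fold, adjusted p = 0.0174). In shoot it measured 6.35, 6.22 and 6.66 in wild type and 6.93, 6.89 and 6.86 in aladin, separate groups with a difference of 0.48 that did not pass (SE 0.14, adjusted p = 0.0994). The root call ended without wild-type root replicate 1 (adjusted p = 0.0779), wild-type root replicate 3 (0.0586) or aladin root replicate 3 (0.0636).

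The count of 7 in root was 4 without wild-type root replicate 2, without wild-type root replicate 3 or without aladin root replicate 2. The count over all 17481 probe sets, 1336, fell with it, to 918, 883 and 870 in that order. With array weights, which let libraries differ in reliability, the UGT count was 14. In a fit on the root libraries alone it was 12, and both held all 7. The counts over all probe sets rose there too, to 2700 and 1793.

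In shoot, UGT76B1 conjugates glucose to salicylic acid, N-hydroxypipecolic acid and isoleucic acid and is known as a brake on defence. Its signal was 5.94, 5.25 and 5.67 in wild-type shoot and 8.44, 6.34 and 8.78 in aladin shoot. All 3 aladin libraries were higher, but aladin shoot replicate 2 lay far nearer to wild type than the others did. The difference was 2.23 (SE 0.47, 4.70-fold, adjusted p = 0.0287), and the SD was 1.32 in aladin shoot beside 0.34 in wild-type shoot. In root the values were 10.57, 10.47 and 10.51 in wild type and 10.21, 10.53 and 10.60 in aladin, with a difference of -0.07 (SE 0.47, adjusted p = 0.965). Because limma uses 1 spread for all 4 groups, this SE is set largely by aladin shoot. Leaving out a single shoot library ended the call in 4 cases. The adjusted p was 0.0876 without replicate 2 and 0.0682 without replicate 3 of wild type, and 0.0927 without replicate 1 and 0.0829 without replicate 3 of aladin. Without aladin shoot replicate 2 the difference was 2.99 (adjusted p = 5.4e-05), and over all 21 alternatives, 8 of which ended the call, the adjusted p ran up to 0.202, in a fit on the shoot libraries alone. The others were a trend and robust prior (0.0574), all probe sets tested (0.0546) and array weights (0.0528).

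UGT73B5, a glucosyltransferase with a reported part in the response to bacterial infection and to redox stress, had values of 5.22, 5.19 and 5.82 in wild-type shoot and 6.96, 6.42 and 6.81 in aladin shoot. The groups did not overlap. The rise was 1.32 (SE 0.20, 2.50-fold, adjusted p = 0.00584), and of the 21 alternatives only the fit on the shoot libraries alone ended the call (adjusted p = 0.0719). In root it lay at 7.61, 7.90 and 8.05 in wild type and at 8.23, 8.61 and 8.70 in aladin. Those groups were separate too, and the difference of 0.66 did not pass (SE 0.20, adjusted p = 0.0732). The root difference passed under 5 of the 21 alternatives. These were a trend and robust prior (adjusted p = 0.0343), array weights (0.0122) and a replicate block (0.0473). The others were the fit without wild-type shoot replicate 3 (0.036) and that on the root libraries alone (0.0378). The range over all alternatives was 0.0122 to 0.242.

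UGT73C1, whose enzyme acts on cytokinins and on nitroaromatic pollutants, measured 4.32, 4.31 and 4.09 in wild-type shoot and 5.72, 4.59 and 5.67 in aladin shoot. Every aladin library was higher, again with replicate 2 the lowest. The difference was 1.09 (SE 0.26, 2.12-fold, adjusted p = 0.0495), at the edge of the threshold. It did not pass without any 1 of 10 libraries, all but wild-type root replicate 1 and aladin shoot replicate 2. The adjusted p was then between 0.0598 and 0.143. The call was also lost with a replicate block (0.052), all probe sets tested (0.082) or array weights (0.117). The highest adjusted p, 0.205, came in a fit on the shoot libraries alone. In root the values were 4.26, 3.78 and 3.53 in wild type and 3.80, 3.69 and 3.84 in aladin, with overlap and a difference of -0.08 (adjusted p = 0.924).

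Aladin shoot replicate 2 was the lowest of the 3 aladin shoot libraries for all 3 UGTs called in shoot, and for 20 of the 56 members in all, where replicate 1 was the lowest for 16 and replicate 3 for 20. The shoot count of 3 was 5 without this library. It was 1 (UGT73B5) without replicate 2 of wild-type shoot, and likewise without replicate 1 or replicate 3 of aladin shoot. Over all probe sets the shoot count of 518 was 460 without aladin shoot replicate 2 and 282 without wild-type shoot replicate 2. It was 305 and 293 without replicates 1 and 3 of aladin shoot. Of the 3 UGTs called in shoot, UGT76B1 and UGT73B5 had more signal in root than in shoot in wild type. UGT73C1 had a difference of -0.39 between these organs, which did not pass by limma (adjusted p = 0.227). The 2 root markers measured, of 16 listed, differed in aladin shoot by -0.25 (EXPA7, adjusted p = 0.276) and -0.16 (EXPA18, adjusted p = 0.803). SPCH and MUTE, regulators of the stomatal lineage, fell in aladin shoot by 0.82 (adjusted p = 0.0369) and 0.93 (adjusted p = 0.0437), and FMA, the other one measured, had -0.10 (adjusted p = 0.793). The part of root or stomatal cells in the UGT differences in shoot was not tested.

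**Figure D2:**
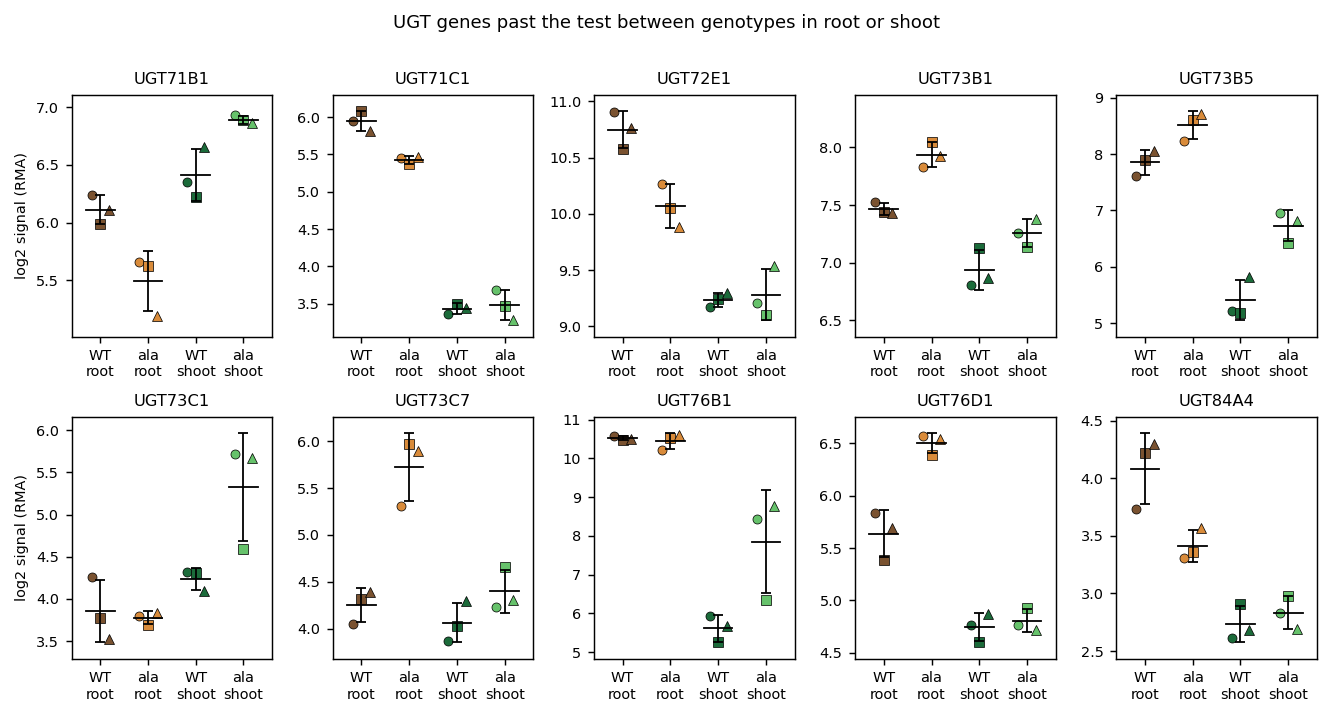
Log2 signal of the 10 UGT genes that passed between genotypes in root or shoot, in each library of wild-type (WT) and aladin (ala) root and shoot. Circles, squares and triangles are replicates 1, 2 and 3, lines with bars are the mean and SD of 3 libraries, and each panel has its own axis, which does not start at 0. In UGT76B1 the square of aladin shoot, 6.34, stands apart from 8.44 and 8.78.

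UGT73B was the only subfamily with several members in which each member had a difference above 0 in both organs on the deposited scale. This held under the other scalings, with array weights and without any 1 library of the organ compared. The other alternatives, such as another prior or set of probe sets tested, leave a log2 difference unchanged and could not alter its sign. Enzymes of this subfamily glucosylate flavonols, and UGT73B3 and UGT73B5 are known from infected leaves. In root the 5 differences ran from 0.35 (UGT73B3) to 0.66 (UGT73B5), of which 1 passed, UGT73B1. In shoot they ran from 0.26 (UGT73B3) to 1.32 (UGT73B5), of which 1 passed, UGT73B5. The lowest of the 5 came near 0 when a library was left out, at 0.04 in shoot without aladin shoot replicate 3 and 0.12 in root without aladin root replicate 3.

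Within this subfamily UGT73B2 had a signal of 4.79, 4.01 and 4.66 in wild-type shoot and 5.60, 5.02 and 5.53 in aladin shoot, separate groups with a difference of 0.90 (SE 0.24, adjusted p = 0.0696). UGT73B4 had 4.14, 3.51 and 3.72 in wild-type shoot and 5.0, 3.59 and 5.13 in aladin shoot, where replicate 2 was within the wild-type range, and a difference of 0.78 (SE 0.34, adjusted p = 0.261). Without aladin shoot replicate 2 the UGT73B4 difference was 1.27 (adjusted p = 0.0112) and that of UGT73B2 was 1.08 (adjusted p = 0.0493). In aladin root, replicate 1 was the lowest library for all 5 members, and in UGT73B3 its value of 5.51 was below all 3 wild-type values (5.55, 5.94 and 5.83).

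**Figure D3:**
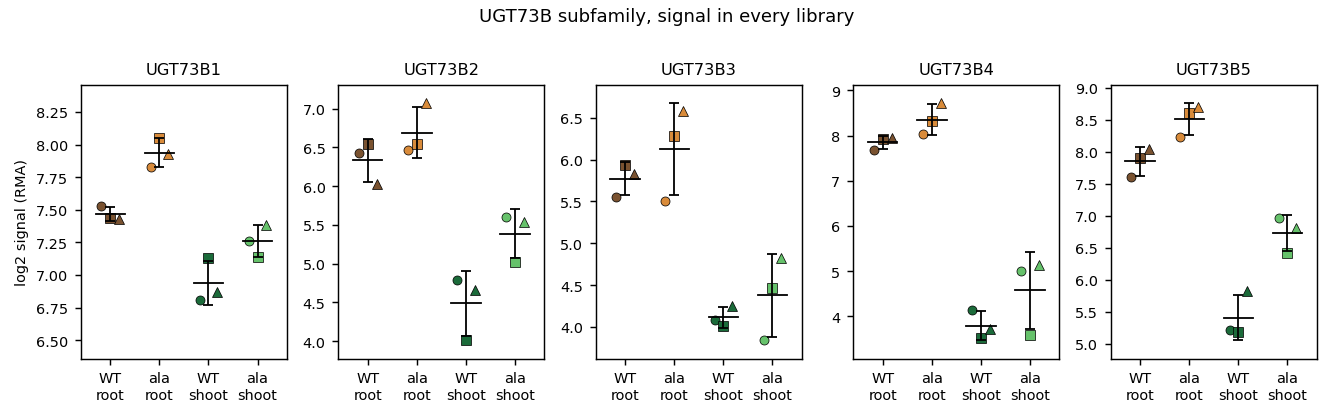
Log2 signal of the 5 UGT73B genes in each library, with circles, squares and triangles for replicates 1, 2 and 3 and lines with bars for the mean and SD of 3 libraries. Each panel has its own axis. The aladin mean is above the wild-type mean in both organs in every panel, the root groups overlap in UGT73B2 and UGT73B3, and the shoot groups overlap in UGT73B3 and UGT73B4.

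The remaining UGT71 members did not pass in either organ. UGT71B6 and UGT71B8 glucosylate abscisic acid, as does UGT71C5, and UGT71C3 acts on methyl salicylate. In UGT71B the root differences other than that of UGT71B1 ran from -0.03 (UGT71B8) to 0.34 (UGT71B6), and the shoot differences from -0.06 (UGT71B6) upwards. In UGT71C the smallest sizes were -0.06 in root (UGT71C4) and 0.01 in shoot (UGT71C3), and the largest in shoot was -0.29 (UGT71C2). UGT71D1 had -0.30 in root and -0.50 in shoot. In UGT72, UGT72E2 and UGT72E3, which glucosylate monolignols and sinapyl alcohol, had root differences of -0.40 and -0.46, on the same side as UGT72E1. Their root groups were separate too, at 5.50, 5.40 and 5.62 against 4.84, 5.37 and 5.12 for UGT72E2, and at 3.96, 4.32 and 4.46 against 3.81, 3.65 and 3.91 for UGT72E3. The separation was narrow, with nearest libraries at 5.40 and 5.37 and at 3.96 and 3.91, and 31.7% of all probe sets had separate root groups. The aladin root mean of UGT72E3, 3.79, lay below 4, the 25th percentile of mean signal. UGT72B3 had -0.38 in root and -0.12 in shoot.

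Other members of UGT73C had root differences from -0.24 (UGT73C2) to 0.16 (the second probe set of UGT73C6, an enzyme of flavonols and brassinosteroids), and shoot differences from -0.44 (UGT73C2) to 0.37 (UGT73C6). UGT73D1 had 0.28 and 0.23. UGT74B1, which makes the glucoside step of glucosinolates, differed by -0.07 in root and -0.06 in shoot. UGT74F1, a salicylic acid glucosyltransferase, differed by -0.12 and 0.16. UGT74D1, which glucosylates oxidised auxin, differed by -0.09 and 0.16 in root and by 0.25 and -0.07 in shoot on its 2 probe sets.

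UGT76C1 and UGT76C2, the enzymes that attach glucose to ring nitrogens of cytokinins, differed by 0.15 and -0.36 in root and by 0.07 and -0.58 in shoot. UGT76C2 had the lowest shoot difference of the family, from 5.63, 5.31 and 5.21 in wild type to 4.5, 4.95 and 4.97 in aladin. Its shoot groups were separate, and the test did not pass (adjusted p = 0.0874). In UGT76E the root differences ran from -0.42 (UGT76E11) to 0.41 (UGT76E1), with UGT76E2 at -0.01, and all 5 probe sets had shoot differences above 0, from 0.05 to 0.40 on the 2 probe sets of UGT76E12.

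The UGT78D enzymes act on flavonoids. UGT78D1 adds rhamnose, UGT78D2 glucose and UGT78D3 arabinose to the flavonol core, and their root differences were -0.11, -0.11 and 0.20 and their shoot differences -0.21, 0.18 and 0.12. None passed. UGT84A3, like UGT84A4 an enzyme of hydroxycinnamate esters, had -0.22 in root and 0.23 in shoot. UGT84B1, which glucosylates auxin, had 0.15 and 0.14, and its neighbour UGT84B2 -0.36 and -0.11. The means of UGT84B1 in the 4 groups, from 2.29 to 2.68, all lay below 4, the 25th percentile of mean signal. So did those of UGT71B8, UGT76E1, UGT76E2, 1 probe set of UGT73C6 and 1 of UGT76E12. The differences of these members are between dim signals. In UGT85A the root differences ran from -0.33 (UGT85A5) to 0.12 (UGT85A7), with UGT85A3 at 0.00, and the shoot differences from -0.52 (UGT85A5) to 0.34 (UGT85A3), with 1 probe set of UGT85A4 at 0.02. The sterol glucosyltransferase UGT80B1 had 0.02 and -0.03. UGT87A2, known for a part in flowering time, had 0.35 and 0.38, UGT89B1, which acts on flavonols and benzoates, had 0.28 and 0.43, and UGT88A1 had -0.37 and 0.30. The groups of UGT87A2 and UGT89B1 were separate in both organs, with aladin higher.

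Groups were separate in both organs for 8 members (14.3%, background 8.31%). Aladin was higher in both for 5 (8.93%, background 3.04%: UGT73B1, UGT73B5, UGT87A2, UGT89B1 and 1 probe set of UGT71B6), lower in both for 0 (background 3.94%) and opposite between organs for 3 (5.36%, background 1.33%: UGT71B1, UGT78D2 and 1 probe set of UGT76E12).

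Root and shoot were next compared within wild type, whose libraries also enter the genotype comparisons. Of the 56 UGT probe sets 40 passed (71.4%, background 58.8%), 23 higher in root (41.1%, background 31.9%) and 17 higher in shoot (30.4%, background 26.9%). At an unadjusted p under 0.05 there were 41 (73.2%, background 62.8%), and 29 had a difference above 0 (51.8%, background 47.6%). At least 2-fold, 12 were higher in root (21.4%, background 11.1%) and 7 were higher in shoot (12.5%, background 9.16%).

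UGT76B1 differed most, with 10.52 ± 0.05 (SD, n = 3) in wild-type root and 5.62 ± 0.34 (SD, n = 3) in wild-type shoot, a difference of 4.90 (SE 0.47, 29.8-fold, adjusted p = 2e-06). UGT73B4 followed at 7.69, 7.93 and 7.95 in root against 4.14, 3.51 and 3.72 in shoot, a difference of 4.07 (SE 0.34, 16.8-fold, adjusted p = 5.5e-07). Next came UGT71C1 at 2.51, UGT73D1 and UGT73B5 both at 2.45, UGT72E2 at 2.3, UGT73B2 at 1.84 and UGT73B3 at 1.66. The wild-type shoot means of UGT73B4 (3.79), UGT71C1 (3.43) and UGT72E2 (3.21) lay below 4, the 25th percentile of mean signal. All 5 UGT73B genes and all 3 UGT72E genes were higher in root. Neighbours in this order among UGT71C1, UGT73D1, UGT73B5 and UGT72E2 lay within 1 SE of each other.

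On the shoot side UGT88A1 was 4.13, 4.21 and 4.59 in wild-type root and 7.45, 7.31 and 7.36 in wild-type shoot, a difference of -3.07 (SE 0.15, 8.37-fold, adjusted p = 3e-09). UGT73C6 followed at -2.87 (SE 0.14, adjusted p = 4.8e-09) and -1.43 on its 2 probe sets. UGT76E11 had -1.70, 1 probe set of UGT85A4 -1.57, UGT76C1 -1.08, UGT78D1 -1.03 and UGT85A7 -0.76. Subfamilies could hold both directions. UGT85A2 was higher in root by 1.53, whereas UGT85A3, UGT85A5 and UGT85A7 were higher in shoot.

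**Figure D4:**
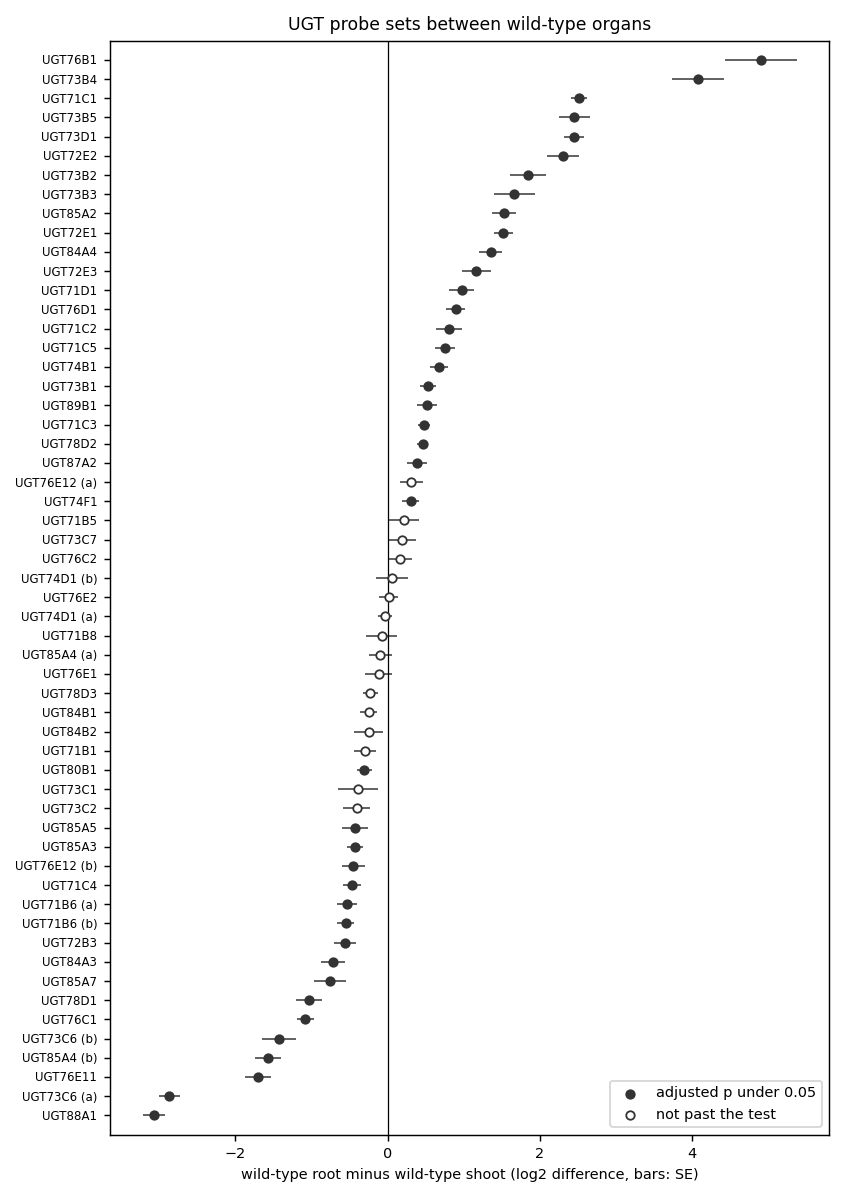
Wild-type root minus wild-type shoot for the 56 UGT probe sets, in log2 units with limma standard errors and 3 libraries per organ, ordered by the difference. Filled points passed an adjusted p of 0.05, letters a and b mark the 2 probe sets of a gene, and the range is -3.07 (UGT88A1) to 4.90 (UGT76B1).

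The same organ difference was measured within the libraries labelled aladin, where 41 members passed (73.2%, background 62.1%). For UGT76B1 it was 2.60 there (SE 0.47) beside 4.90 in wild type, and for UGT73B5 1.78 beside 2.45. UGT73C7, which did not pass between wild-type organs at 0.19 (adjusted p = 0.383), was higher in aladin root than in aladin shoot by 1.32. Whether the genotype effect differs between organs was tested directly, as the effect in root minus that in shoot. It passed for UGT71B1 (-1.11, SE 0.20, adjusted p = 0.015), UGT76D1 (0.81, SE 0.17, adjusted p = 0.0347) and UGT73C7 (1.13, SE 0.26, adjusted p = 0.0494), which is 5.36% of members beside a background of 2.15% (1.43% higher and 0.715% lower). At an unadjusted p under 0.05 there were 15 members (26.8%, background 14%), and 24 had a difference above 0 (42.9%, background 48.9%). The UGT76B1 effects of -0.07 and 2.23 did not differ past the threshold (-2.3, SE 0.67, adjusted p = 0.114), except without aladin shoot replicate 2 (-3.06, adjusted p = 0.00036). The calls of UGT73C7 and UGT76D1 were lost under 13 and 11 of 20 alternatives, with adjusted p up to 0.124 and 0.0831, and that of UGT71B1 under none. The highest of these came without aladin root replicate 2 for UGT73C7 and without aladin root replicate 3 for UGT76D1.

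Position in the genome was taken from the gene order of RefSeq assembly TAIR10.1, without coordinates, since the build of the array annotation is not given. The 51 genes lay on all 5 chromosomes (13, 14, 10, 6 and 8 on chromosomes 1 to 5), and 26 of them stood in 11 runs of directly adjacent members. The runs that hold a member called between genotypes are given here, other than that of UGT73B1, whose subfamily is described above. On chromosome 3 UGT73C7 rose in root by 1.47 and its neighbour UGT73D1 had 0.28. On chromosome 4 UGT84A4 fell in root by 0.67 and UGT84A3 had -0.22, and in wild type UGT84A4 was higher in root by 1.35 while UGT84A3 was higher in shoot (-0.72). On chromosome 2 the pair UGT73B5 and UGT73B4 was higher in root in wild type by 2.45 and 4.07, and the genotype differences in shoot were 1.32 and 0.78. On chromosome 2 UGT71C1 fell in root by 0.52 and the adjacent UGT71C2 had -0.42. In shoot UGT73C1 rose by 1.09 while the adjacent UGT73C2 had -0.44. Differences between neighbours were not tested, nor was binding of a copy's transcript to the probes of another.

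For 5 genes 2 probe sets were measured, and none of these 10 probe sets passed between genotypes by limma. At an unadjusted p under 0.05 there were 1 in root (background 20.1%) and 4 in shoot (background 17.5%). The probe sets of UGT71B6 gave 0.16 and 0.34 in root, and in wild type both were higher in shoot (-0.54 and -0.55). Those of UGT76E12 differed in sign between wild-type organs, at 0.31 (adjusted p = 0.0946) and -0.45 (adjusted p = 0.019). Those of UGT85A4 gave -0.10, which did not pass, and -1.57, which did. The sources used here do not say which of them reads the full transcript.

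Of the 4 genes with a UGT name only as synonym, none passed between genotypes by limma, with adjusted p from 0.147 upwards. These were SGT (UGT80A2, 0.08 in root and 0.10 in shoot), GT72B1 (UGT72B1, -0.14 and 0.35), AT5G54010 (UGT79B6, -0.03 and -0.12) and UF3GT (UGT79B1, an anthocyanin enzyme, 0.06 and -0.80).

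Genes that act before or after glycosylation were listed as well. Their counts stand beside the backgrounds given above, in root 4.63% higher and 3.01% lower and in shoot 1.49% and 1.47%, and most lists had few measured genes. The lists were chosen with earlier results of these data known, so a count above the background cannot be read as an enrichment. Of the beta-glucosidases, which remove sugars, 22 were measured. In root 2 rose, BGLU45 by 1.06 (SE 0.13, adjusted p = 0.00035) and BGLU46 by 1.07 (SE 0.13, adjusted p = 0.00033), both known to hydrolyse monolignol glucosides, and 1 rose in shoot, BGLU46 by 0.79 (adjusted p = 0.01). The medians were -0.03 and 0.03. Of 19 monolignol genes 5 were measured, these 2 included, and 4 rose in root, among them the cinnamoyl-CoA reductase CCR2 by 1.03 (adjusted p = 0.00088) and CCOAMT, a caffeoyl-CoA methyltransferase, by 2.76 (adjusted p = 0.00046). HCT had 0.02. In the same libraries UGT72E1 fell by 0.69, UGT84A4 fell by 0.67 and UGT73C7 rose by 1.47, while UGT72E2, UGT72E3 and UGT84A3 did not pass (adjusted p = 0.339, 0.196 and 0.522).

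Among glutathione transferases, the other large family of conjugating enzymes, 11 of the tau class were measured. In root GSTU22 rose by 0.66 and GSTU15 by 0.57, while GSTU20 fell by 0.67 and GSTU26 fell by 0.60. GSTU20 also fell in shoot, by 0.65. Of 3 from other classes GSTF3 rose in root by 1.67 and GSTL3 fell by 0.46. Of 21 genes of salicylic and N-hydroxypipecolic acid only SAG101, a partner of EDS1 in immunity, was measured, and it rose by 0.51 in root (adjusted p = 0.00208) and by 0.37 in shoot (adjusted p = 0.0333). Of 14 genes of auxin conjugation and oxidation 6 were measured, with GH3.17 falling in root by 0.34 and GH3.9 falling in shoot by 0.88. The 3 measured of 16 flavonoid genes did not pass in either organ by limma. At an unadjusted p under 0.05 there were 1 in root (background 20.1%) and 2 in shoot (background 17.5%). The 1 measured of 29 genes of UDP-sugar supply, USP, had -0.09 and -0.12. Of the ABCC and DTX transporter families, the glucosinolate list and the cytokinin oxidases 0 were measured.

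Of the green tissue markers RCA, Rubisco activase, rose in aladin root by 0.61 (adjusted p = 0.00306), and the other 3 of the 4 did not pass, at 0.13 (LHCB4.1), -0.53 (LHCB4.2) and 0.56 (PORB). The part of green tissue in the UGT differences in root was not tested.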

How the data were processed

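Arrays were processed by the authors with RMA, per the submitters' processing notes, and the deposited values are on the log2 scale, as read from RMA and from their range. The sources used here name neither the software nor the chip description. The table held 38408 probe sets. The array annotation named at least 1 gene for 17481 (exactly 1 for 16722, several for 759), and these were tested without a filter on low signal. Groups came from the sample titles. With R 4.3.3 and limma 3.58.1, group means were fitted to all 12 arrays (lmFit, contrasts.fit, eBayes; 8 residual and 3.67 prior degrees of freedom), and p values were adjusted by Benjamini-Hochberg over the 17481 probe sets. Errors with differences are limma standard errors. The procedure was run on simulated data with 200 changed probe sets and the same spread in all 4 groups of a probe set. That run cannot tell how the test behaves where the groups differ in spread, as in UGT76B1. Symbols and gene order came from RefSeq (51 of 51 genes matched by gene number).

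The named genes were all UGTs past the threshold between genotypes or for the difference of the organs' effects, UGT76B1, UGT73B5 and UGT73C1, the 8 highest and 8 lowest organ differences, the largest and smallest genotype difference of each subfamily in each organ, and up to 4 genes past the threshold per list. UGT73B2 and UGT73B4 in shoot, UGT72E2, UGT72E3, UGT76C2 and the adjacent copies were described after their values were seen. The members and lists were chosen with earlier results of these data known. Alternatives covered the prior, which probe sets were tested (a filter on dim ones included), scaling, array weights, a replicate block, a fit per organ and leaving out each library. Same-numbered libraries of different groups did not deviate together (correlations of deviations from group means -0.057 to 0.097), so the numbers were not taken as pairs. Figures were drawn with Python 3.11, pandas 2.3.3 and matplotlib 3.10.9. No sequences of the genes or probes were used here.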

Additional observations from a re-analysis of the deposited data

Results flagged for a closer look

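For 3 UGTs the test of the difference itself found unlike genotype effects in root and shoot. UGT71B1 fell in aladin root and had a difference of 0.48 in shoot that did not pass (adjusted p = 0.0994, effect in root minus in shoot -1.11, adjusted p = 0.015), and the call held under all 20 alternatives. UGT73C7 (1.13, adjusted p = 0.0494) and UGT76D1 (0.81, adjusted p = 0.0347) rose in root and did not pass in shoot, and these calls held under 7 and 9 of 20 alternatives.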

How the results depend on the processing

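The 7 root calls remained under the other priors, scalings and sets of probe sets tried. The count was 14 with array weights and 12 in a fit on the root libraries alone, and 4 to 8 when a library was left out. The shoot count of 3 was 1 with all probe sets tested, 1 with array weights and 1 to 5 without a library. With a trend and robust prior it was 3, of which 2 were shared, since UGT73B2 passed and UGT76B1 did not. In a limma fit on the shoot libraries alone it was 0, with 15 of 56 members at an unadjusted p under 0.05. In that fit 2087 of all 17481 probe sets had an unadjusted p under 0.05. The shoot calls of the report use a spread shared with root. The array weights, which are lower for libraries that vary more within their group, were 0.641 to 0.808 in shoot. In root they were 0.944 to 2.448. For the effect in root minus in shoot the count of 3 was 1 with all probe sets tested, 1 with 75th percentile centring and 1 to 5 without a library. The wild-type organ count of 40 was 37 to 42 without a library and 38 to 43 otherwise.

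The median root difference was -0.06 with dim probe sets left out (50 members kept), 0.01 with quantile normalization and -0.04 to 0.01 without a library. The shoot median was 0.10 to 0.14 without a library. Without a library, UGT73C1 in root ran from -0.24 to 0.12 (above 0 without wild-type root replicate 1) and UGT76B1 in root from -0.15 to 0.05 (above 0 without aladin root replicate 1), never past the threshold. With a replicate block 8 members passed in root, 2 in shoot, 3 for the effect in root minus in shoot and 42 between wild-type organs. Over all probe sets the counts with this block were 1237, 379, 312 and 10210. Taking 1 probe set a gene, or adding the 4 genes with UGT synonyms, both chosen after the data were seen, gave 7 root and 3 shoot calls. Over all probe sets the root count of 1336 was 2700 with array weights and 1793 in the root fit alone. It was 2155 with all probe sets tested and 870 to 1415 without a library. The shoot count of 518 was 862 with a trend and robust prior, 202 with array weights and 58 in the shoot fit alone. The effect in root minus in shoot passed for 375, and for 594 with a trend and robust prior. The organ count of 10279 was 20311 with all probe sets tested. Apart from the fits on fewer libraries or more probe sets, the cause of these shifts was not tested.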
